A study of Mus musculus with 16 samples.

Results

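Scavenger receptors are surface and endosomal proteins that bind modified lipoproteins, hemoglobin complexes, apoptotic cells and microbial polymers and carry them into the cell. Macrophages and the endothelium that lines sinusoids are their best known sites, and their combination is often used to describe the state of tumor-associated macrophages. Cd163 and Cd163l1 belong to the scavenger receptor cysteine-rich family, Msr1, Marco and Colec12 carry collagen-like stalks, and the remaining genes belong to other families. The levels of 9 such genes are described here, Cd163l1, Cd163, Msr1, Marco, Cd68, Scarb1, Colec12, Olr1 and Stab1, which were chosen by name and found by their Ensembl identifiers among 22298 genes counted in each of 16 tumors.

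RNA-seq was performed on abdominal tumors of wild-type 615-line mice, 6 weeks old, that had received 500000 MFC cells, a mouse forestomach carcinoma line, into the peritoneal cavity. The vehicle group (n = 8 tumors) received PBS and the IL-33 treatment group (n = 8 tumors) received IL-33 at 20 μg/kg, both intraperitoneally, IL-33 being given every other day. The study asked how intraperitoneal IL-33 changes the immune cells of disseminated gastric tumors, macrophages among them. The total count of a vehicle tumor was 14139268 at the lowest and 24290794 at the highest, and that of an IL-33 tumor 16569613 and 24288893. Levels are given as CPM, a gene's count scaled to a common library total. The labels name the tumors as separate samples but do not tie them to single mice, so the tests measure the spread between tumors. The study's methods give fewer mice per group for this model than tumors sequenced, so some tumors may share a mouse, and the p-values are then too small.

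One tumor stood apart from the other 15. IL-33 replicate 7 held 1697 CPM summed over 10 ovary markers against 3.22 to 7.97 CPM in the other tumors, with Hsd3b1, a steroidogenic enzyme, as the most abundant at 743 CPM. Its 9 uterus and oviduct markers summed to 1632 CPM against 11.2 to 23.3 CPM, led by Ovgp1, the oviduct glycoprotein, at 923 CPM. Fibroblast markers reached 14741 CPM there against 546 to 7044 CPM elsewhere, blood endothelial markers 1715 CPM against 154 to 414 CPM, lymphatic and sinusoidal endothelial markers 288 CPM against 35.2 to 155 CPM, and adipose markers 2720 CPM against 2.22 to 268 CPM. Its 16 macrophage markers summed to 2920 CPM, inside the range of 941 to 4602 CPM of the other tumors. Its 9 markers of resident peritoneal macrophages summed to 235 CPM, above the 15.8 to 99.3 CPM of the others. That excess was not shared by the whole list. Gata6 had 61.5 CPM there, but F5, the most abundant gene of the list, had 7.58 CPM against a median of 8.06 CPM over all tumors. The edgeR comparisons below are therefore given with and without this tumor, and the part of other tissue in it was not tested. Vehicle replicate 4 also differed, with a trimmed-mean (TMM) scaling factor of 0.640 against 0.895 to 1.24 in the others, and 9.48 CPM of Adgre1, the gene of F4/80, the lowest of all.

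**Figure D1:**
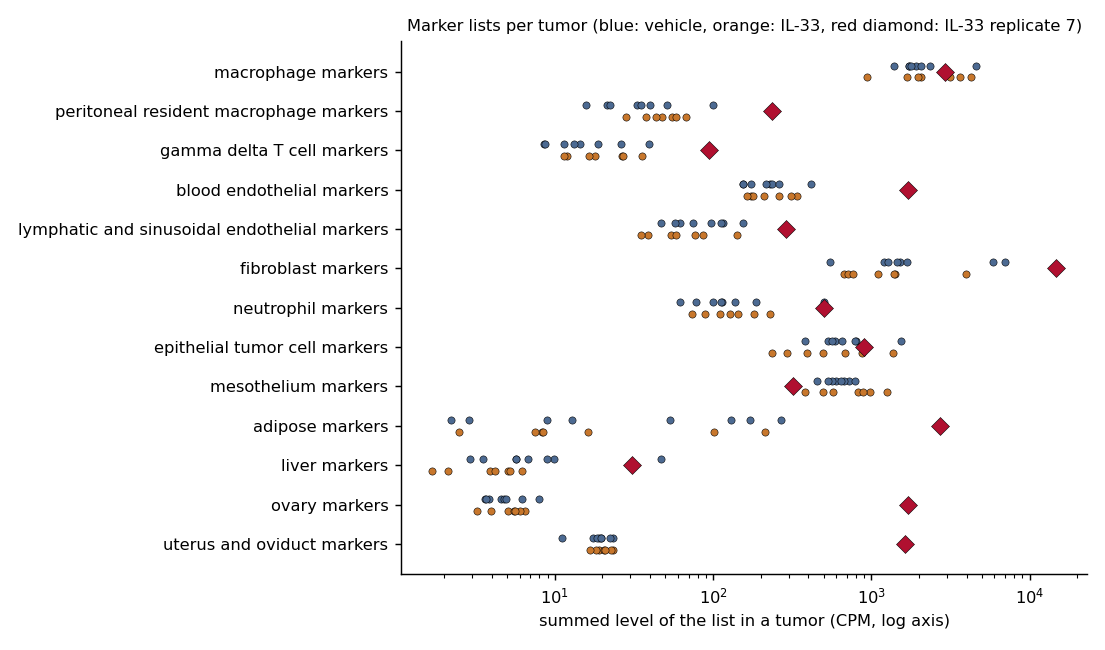
Summed level of 13 marker lists in each tumor, in CPM on a log axis. Each point is 1 tumor, vehicle in blue and IL-33 in orange, and the red diamond is IL-33 replicate 7, which lies beyond the other 15 tumors for the ovary (1697 CPM), uterus and oviduct (1632 CPM) and adipose (2720 CPM) lists and within them for macrophage markers.

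Of the markers that define an epithelial tumor, Krt8 (median 466 CPM) was abundant in all tumors. Epcam and Cdh1, the genes of epithelial cell adhesion molecule and E-cadherin, had vehicle means of 0.337 and 1.74 CPM, and Cldn7 of 0.036 CPM. All of these markers were at their highest in IL-33 replicate 7 except Krt8, with 224 CPM there, and Krt19, with 211 CPM there. In bulk tumors, fewer cells of a type and less RNA per cell cannot be told apart.

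The transcript level per kilobase of exon placed the 9 genes in a wide order. Cd68, which encodes the lysosomal glycoprotein macrosialin, had a median of 48.4 CPM per kb over the 16 tumors and lay above all other members in each of them. Scarb1, the receptor for high-density lipoprotein, followed with 16.9, Stab1 with 10.7, Msr1 with 7.99 and Cd163 with 4.81 CPM per kb. Marco (2.07 CPM per kb) and Colec12 (1.73 CPM per kb) did not separate, Marco being the higher in 9 of 16 tumors. Olr1, the receptor for oxidized low-density lipoprotein, was at 0.160 CPM per kb, and Cd163l1, at 0.00641 CPM per kb, was the lowest in every tumor. Neighbors in the order from Scarb1 to Marco exchanged places in some tumors, the higher of them leading in 11 to 13 of 16. Exon lengths are those of the union of annotated exons, so a gene with a long untranslated end reads lower on this scale.

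**Figure D2:**
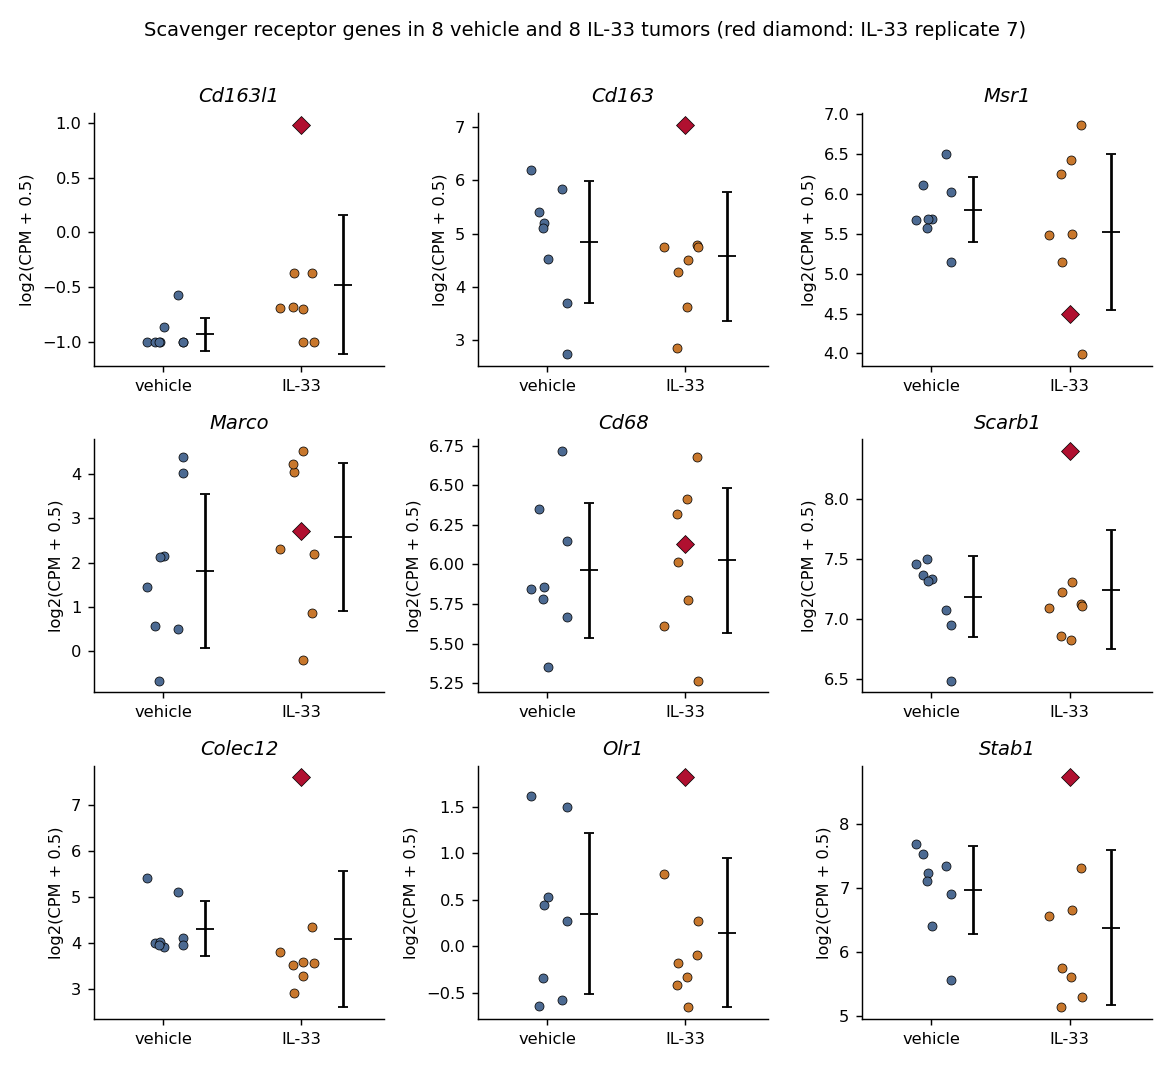
Level of each of the 9 genes per tumor as log2(CPM + 0.5), with vehicle in blue, IL-33 in orange and IL-33 replicate 7 as a red diamond. The black mark is the group mean and its bar the SD (n = 8). IL-33 replicate 7 is the highest of 16 tumors for Cd163l1, Cd163, Scarb1, Colec12, Olr1 and Stab1, and second lowest for Msr1.

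Sequence upstream of the start was read from RefSeq for GRCm38.p6 and used for 6 of the 9 genes. That of Msr1, Scarb1 and Colec12 was not used here. The 250 bases before the start are printed for Cd163l1, the gene nearest to the limit of detection, Stab1, lower in the IL-33 group without replicate 7, and Marco, the gene with the widest relative spread after Cd163l1 when replicate 7 is left out. Capitals mark every GAGGAA, the core bound by PU.1 and other ETS factors, and every AGATAA, bound by zinc finger factors such as GATA3. Both strands were searched, and a match on the other strand appears as its complement read backward. The windows are chr7:140218017-140218266 on the plus strand for Cd163l1, chr14:31168642-31168891 on the minus strand for Stab1 and chr1:120505025-120505274 on the minus strand for Marco, none of which overlapped an annotated exon.
Cd163l1: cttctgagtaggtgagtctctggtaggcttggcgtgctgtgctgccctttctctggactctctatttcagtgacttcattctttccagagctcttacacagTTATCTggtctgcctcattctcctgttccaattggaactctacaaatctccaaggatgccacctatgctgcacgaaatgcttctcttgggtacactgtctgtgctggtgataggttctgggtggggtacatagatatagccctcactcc
Stab1: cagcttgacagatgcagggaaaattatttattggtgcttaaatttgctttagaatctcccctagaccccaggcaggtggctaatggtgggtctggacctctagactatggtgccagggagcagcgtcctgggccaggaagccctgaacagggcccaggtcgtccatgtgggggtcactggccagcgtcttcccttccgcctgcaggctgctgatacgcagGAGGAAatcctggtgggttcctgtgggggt
Marco: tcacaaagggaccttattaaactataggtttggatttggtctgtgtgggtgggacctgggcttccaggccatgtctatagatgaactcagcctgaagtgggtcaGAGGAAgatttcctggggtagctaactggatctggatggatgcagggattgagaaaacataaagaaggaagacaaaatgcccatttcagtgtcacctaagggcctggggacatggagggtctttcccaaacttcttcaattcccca
GAGGAA occurred in the windows of Marco, Cd68, Olr1 and Stab1 and not in those of Cd163l1 and Cd163, against 23.3% of all 32851 RefSeq windows. AGATAA occurred in those of Cd163l1 and Olr1, against 9.99%. TGACTCA, the AP-1 element, occurred in those of Cd68 and Olr1, against 4.46%. These are matches of letters, not measured sites.

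Across all genes, none passed an adjusted p of 0.05 in edgeR's quasi-likelihood test with all 16 tumors (16817 genes tested, percent called 0.0) or without IL-33 replicate 7 (15803 genes, 0.0). At an unadjusted p under 0.05, 11.2% of genes were called with all tumors, 9.99% higher and 1.17% lower in the IL-33 group. Without replicate 7 these shares were 4.12%, 1.83% and 2.29%. DESeq2 and limma voom also gave 0 genes at the adjusted threshold with all tumors, with 424 and 522 genes higher and 267 and 444 lower at an unadjusted p under 0.05. Of the 9 scavenger receptors, 1 (Cd163l1) was called higher and 0 lower with all tumors, and 0 higher and 2 lower without replicate 7, all at unadjusted p. Cd163l1 entered the test only through the reads of the IL-33 group, and a call of such a gene had to be in that direction. Their median log2 fold change was -0.037 with all tumors and -0.16 without replicate 7, beside 0.056 and -0.011 over all genes tested. The median difference over all genes was 0.11 on the CPM scale and 0.034 on the TMM scale, both with all tumors, and 0.042 and -0.0029 without replicate 7.

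**Figure D3:**
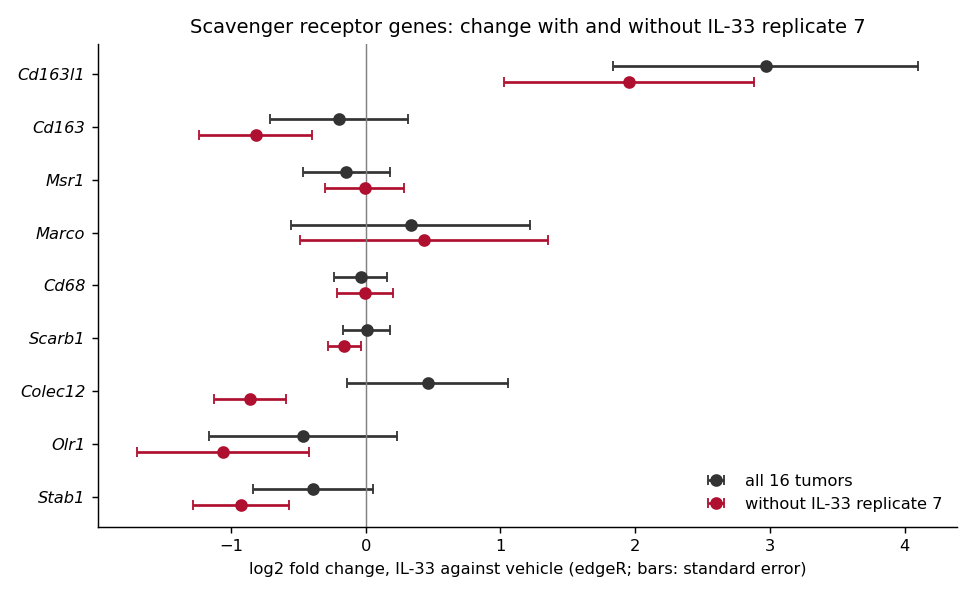
Log2 fold change of the IL-33 group against the vehicle group for the 9 genes by edgeR, in black with all 16 tumors and in red without IL-33 replicate 7. Bars are standard errors. Colec12 moves from 0.46 to -0.86 and Stab1 from -0.39 to -0.92.

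Cd163l1 encodes a scavenger receptor cysteine-rich protein, also called Scart1 in the mouse, that is best known from γδ T cells. It lies at chr7:140218267-140231145 and gave 4 reads in all in the vehicle group, 1 in replicate 1 and 3 in replicate 7, with 0 in the other 6 tumors. In the IL-33 group it gave 43 reads, and replicates 1 to 8 held 0, 2, 5, 2, 5, 0, 26 and 3. Reads were thus found in 2 of 8 vehicle and 6 of 8 IL-33 tumors, the groups overlapped, and 60.5% of the reads of the IL-33 group came from replicate 7.

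The mean level of Cd163l1 was 0.0276 ± 0.0607 CPM (SD, n = 8) among vehicle tumors and 0.299 ± 0.489 CPM (SD, n = 8) among IL-33 tumors, or 0.130 ± 0.112 CPM (SD, n = 7) without replicate 7. The ratio of the pooled levels was 10.1 with a 95% exact counting interval of 3.66 to 38.7, and 4.50 (1.47 to 18.4) without replicate 7. These intervals cover counting error only. A tumor with 0 reads allows a level of up to 0.124 to 0.212 CPM, and 5 of the 8 tumors with reads lay below the upper of these values.
The filter asked for 10 counts over all tumors, which Cd163l1 reached only through the IL-33 group, and a stricter filter on expression removed it. A call in edgeR could thus only be higher, and the edgeR values below describe the reads and decide nothing about a difference. In the edgeR test the log2 fold change was 2.97 ± 1.13 (SE), unadjusted p = 0.0178 and adjusted p = 0.418, and 1.95 ± 0.93 (unadjusted p = 0.0514, adjusted p = 0.964) without replicate 7. The two-sided exact permutation test over every assignment of the tumors, on log2(CPM + 0.5) gave a difference of 0.45 (p = 0.0238, 1 of 9 such tests and unadjusted), and 0.24 (p = 0.0424) without replicate 7. The number of tumors with a read did not pass the two-sided Fisher exact test (p = 0.132, and p = 0.132 without replicate 7). With at least 2 reads asked for, it was 1 of 8 against 6 of 8 tumors (Fisher exact p = 0.0406). The study had already named Cd163l1 as high in the IL-33 group from these same tumors. The permutation and Fisher p-values are therefore no independent support for a difference.

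The markers of γδ T cells were measured beside Cd163l1. Of 15 such genes, 13 could be tested and 0 were called in either direction, beside 11.2% of all genes. Without replicate 7, 0 of 12 were called, beside 4.12% of all genes. The median log2 fold change of the list was 0.64, or 0.39 over the 12 genes without replicate 7. Il17a had 0 reads in all 16 tumors, and Sox13, which other cells also express, was the most abundant gene of the list at a median of 4.62 CPM. Trdc, the constant region of the T cell receptor delta chain, had a vehicle mean of 0.350 CPM and an IL-33 mean of 0.755 CPM (0.651 CPM without replicate 7), with an edgeR log2 fold change of 0.79 (unadjusted p = 0.246), and 0.69 (unadjusted p = 0.284) without replicate 7. The list summed to 93.8 CPM in IL-33 replicate 7, of which 55.2 CPM were Sox13, against 8.56 to 39.3 CPM elsewhere. The part of these cells in the Cd163l1 reads was not tested.
The genes most like Cd163l1 in its variation among tumors within groups, over 13102 genes and 16 tumors, were Ddb2 (Pearson r = 0.954), Thsd1 (0.935) and Cables1 (0.933). IL-33 replicate 7 was the highest tumor for all 3, and r was 0.781, 0.730 and 0.662 without it.

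Cd163, the macrophage receptor for hemoglobin bound to haptoglobin, lies at chr6:124304656-124330527. It ranged from 6.13 to 72.6 CPM among vehicle tumors, with a median of 35.2 CPM, and from 6.67 to 132 CPM among IL-33 tumors, with a median of 24.2 CPM. IL-33 replicate 7 was the highest of all tumors, and the other 7 IL-33 tumors, at 6.67 to 27.2 CPM, all lay below the vehicle median, though within the vehicle range. The log2 fold change was -0.20 ± 0.51 (SE, edgeR unadjusted p = 0.703) with all tumors and -0.82 ± 0.42 (edgeR unadjusted p = 0.0685, adjusted p = 0.964) without replicate 7. The same data without replicate 7 gave -0.82 and an unadjusted p = 0.0493 in DESeq2.

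Stab1 encodes stabilin-1, an endocytic receptor of sinusoidal endothelium and of a subset of macrophages. It lies at chr14:31139013-31168641 on the minus strand and overlaps Nt5dc2 on the other strand. Whether counting used strand is not given in the sources used here, so reads of both genes may mix where they overlap. Its levels ran from 46.4 to 205 CPM among vehicle tumors (median 143 CPM) and from 34.5 to 424 CPM among IL-33 tumors (median 73.5 CPM). IL-33 replicate 7 was the highest tumor, 6 of the other 7 IL-33 tumors lay below the vehicle median, and 2 of them lay below every vehicle tumor. The mean was 136 ± 51.9 CPM (SD, n = 8) among vehicle tumors and 75.3 ± 44.9 CPM (SD, n = 7) among IL-33 tumors without replicate 7.
The edgeR log2 fold change of Stab1 was -0.39 ± 0.45 (SE, unadjusted p = 0.392) with all tumors and -0.92 ± 0.35 (unadjusted p = 0.0189, adjusted p = 0.964) without replicate 7. The exact permutation test gave p = 0.247 with all tumors and p = 0.0353 without it. Of 7 lymphatic and sinusoidal endothelial markers tested, 0 were called with all tumors, beside 11.2% of all genes in either direction. Without replicate 7, 2 of them, Mmrn1 and Pdpn, were lower, beside 2.29% of all genes. The median log2 fold change of the 7 was 0.46 with all tumors and -0.74 without it. Lyve1, a hyaluronan receptor of lymphatic endothelium and some macrophages, had -0.22 (edgeR unadjusted p = 0.736) with all tumors and -0.89 (unadjusted p = 0.149) without replicate 7, a tumor with 109.8 CPM of Lyve1. The liver sinusoidal gene Clec4g was at or near 0 (0.029 CPM in the vehicle group). The part of endothelial cells in the Stab1 values was not tested.

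Msr1, Marco and Colec12 are the class A receptors with collagen-like domains. Msr1, at chr8:39581685-39642673, takes up acetylated and oxidized lipoproteins and ranged from 35.0 to 89.9 CPM among vehicle tumors (median 51.0 CPM) and from 15.4 to 117 CPM among IL-33 tumors (median 44.5 CPM). Both the highest and the 3 lowest tumors belonged to the IL-33 group, replicate 7 being one of the 3 at 22.0 CPM. The log2 fold change was -0.14 ± 0.32 (SE, edgeR unadjusted p = 0.662) and -0.0061 ± 0.29 without replicate 7 (unadjusted p = 0.984), and the IL-33 group had a wider coefficient of variation, 63.3% against 29.4%, a difference that was not tested.

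Marco, a receptor for bacteria and particles that marks some resident macrophages, lies at chr1:120474538-120505024. Its level ran from 0.124 to 20.4 CPM among vehicle tumors (median 3.05 CPM) and from 0.363 to 22.6 CPM among IL-33 tumors (median 5.25 CPM). High and low tumors occurred in both groups: 2 vehicle and 3 IL-33 tumors were above 15 CPM. The log2 fold change was 0.33 ± 0.88 (SE, edgeR unadjusted p = 0.711) and 0.43 ± 0.92 without replicate 7 (unadjusted p = 0.645). The gene nearest to Marco in variation among tumors with an assigned function was Cd5l (r = 0.861, and 0.863 without replicate 7), a secreted scavenger receptor cysteine-rich protein of tissue macrophages. Olfr839-ps1, a pseudogene, and Gmeb1 were the others of the 3 nearest, at r = 0.871 and 0.818.

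Colec12, a scavenger receptor collectin of endothelium and stroma that lies on chromosome 18, had IL-33 tumors both below and above every vehicle tumor. Vehicle tumors ranged from 14.5 to 41.8 CPM (median 15.7 CPM) and IL-33 tumors from 7.08 to 192 CPM (median 11.5 CPM). In the IL-33 group 6 tumors, at 7.08 to 13.5 CPM, lay below every vehicle tumor, replicate 3 lay within the vehicle range at 19.8 CPM, and replicate 7 lay above all tumors at 12.7 times the median of the other 15. That tumor held 67.8% of the group's Colec12 reads.
The edgeR log2 fold change was 0.46 ± 0.60 (SE, unadjusted p = 0.450, adjusted p = 0.843) with all tumors and -0.86 ± 0.27 (unadjusted p = 0.0055, adjusted p = 0.964) without replicate 7. The exact permutation test gave p = 0.759 with all tumors and p = 0.0121 without replicate 7. DESeq2 with all tumors gave -0.81 (unadjusted p = 0.0027) after it had replaced the count of replicate 7, 3363, by 324 as an outlier. Of 9 fibroblast markers, 0 were called in either setting, beside 11.2% of all genes with all tumors and 4.12% without replicate 7. Their median log2 fold change was 0.13 with all tumors and -0.70 without replicate 7. None of the 9 had a positive value without that tumor. The vehicle tumors with the most Colec12, replicates 3 and 7, also had the highest fibroblast sums of that group, 7044 and 5841 CPM. The part of stromal cells in the Colec12 values was not tested.

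Cd68, at chr11:69664213-69666153, was among the steadiest members. It ranged from 40.3 to 105 CPM among vehicle tumors (median 57.2 CPM) and from 37.9 to 102 CPM among IL-33 tumors (median 66.7 CPM). The groups overlapped almost fully, and replicate 7 lay inside both ranges at 69.4 CPM. The log2 fold change was -0.037 ± 0.20 (SE, edgeR unadjusted p = 0.856) and -0.0020 ± 0.21 without replicate 7 (unadjusted p = 0.992).

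Scarb1, at chr5:125277087-125341094, takes cholesteryl esters from high-density lipoprotein and is abundant in steroid-forming tissue. It ranged from 89.0 to 181 CPM among vehicle tumors (median 160.0 CPM) and from 113 to 337 CPM among IL-33 tumors (median 138 CPM). Replicate 7 was 2.42 times the median of the other 15 tumors, while the other 7 IL-33 tumors lay below the vehicle median. The log2 fold change was 0.0098 ± 0.17 (SE, edgeR unadjusted p = 0.956) and -0.16 ± 0.12 (unadjusted p = 0.219) without replicate 7.

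Olr1, at chr6:129485244-129507165, gave 145 reads in the vehicle group and 115 in the IL-33 group. Levels ran from 0.141 to 2.57 CPM (median 0.785 CPM) and from 0.136 to 3.02 CPM (median 0.411 CPM). Replicate 7 was again the highest tumor, and 6 of the other 7 IL-33 tumors lay below the vehicle median. The log2 fold change was -0.47 ± 0.70 (SE, edgeR unadjusted p = 0.512) and -1.06 ± 0.64 (unadjusted p = 0.116) without replicate 7.

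To set the receptors against macrophage content within a tumor, each level plus 0.5 CPM was divided by the summed level of 16 macrophage markers. None of those markers, whose median log2 fold change was 0.165, was called with all tumors, beside 11.2% of all genes. Without replicate 7 only Itgam, the integrin CD11b chain, was called higher, at 0.74 (edgeR unadjusted p = 0.0446), beside 1.83% of all genes. Outside IL-33 replicate 7, Cd163l1 reached at most 0.274 CPM, so the added 0.5 CPM and the macrophage sum mostly set its ratio. Its test among the 9 can therefore decide nothing. Olr1, at a median of 0.570 CPM over all tumors, is limited in the same way to a lesser degree. Per macrophage marker, 0 of the 9 genes passed an unadjusted p of 0.05 by the exact permutation test with all tumors. Msr1 came nearest, at a log2 difference of -0.48 (exact permutation p = 0.0662), and passed in 4 of 16 repeats that each left out 1 tumor, vehicle replicate 4 or 7 or IL-33 replicate 2 or 3 (exact permutation p = 0.0322, 0.0398, 0.0458 and 0.0416). Without replicate 7, Colec12 (-0.88, p = 0.0176) and Stab1 (-1.07, p = 0.0407) were lower by the exact permutation test, 2 of 9 unadjusted tests. Neither passed relative to Adgre1 alone, at -1.06 (exact permutation p = 0.0631) and -1.25 (exact permutation p = 0.0648), and both passed relative to Csf1r alone, at -0.90 (exact permutation p = 0.0115) and -1.10 (exact permutation p = 0.0429). The ratio of Cd163 to Adgre1, the transcripts of the CD163 and F4/80 antigens, ran from 0.0864 to 1.77 in vehicle tumors and from 0.0677 to 2.07 in IL-33 tumors. The groups overlapped, with a log2 difference of -0.60 (exact permutation p = 0.428) with all tumors and -0.95 (exact permutation p = 0.202) without replicate 7.

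The relation of each receptor to the macrophage sum among tumors was then measured. After the group means were removed, Cd68 followed the summed macrophage markers most closely with all tumors (Pearson r = 0.834, adjusted permutation p = 0.0016, Spearman rho = 0.762, adjusted permutation p = 0.0153, 9 relations). Without the 2 tumors farthest from the median of Cd68 the correlation was 0.711. Msr1 also followed them by Pearson's measure (r = 0.713, adjusted permutation p = 0.0094) and not by Spearman's (rho = 0.597, adjusted permutation p = 0.0902), with r = 0.471 without the 2 farthest tumors. Without replicate 7 both passed by both measures, and Msr1 (r = 0.848) was about level with Cd68 (r = 0.842). Cd163 (r = -0.165) and Stab1 (r = 0.142) did not pass.

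Of 36 pairs of receptors, 7 passed an adjusted permutation p of 0.05 by Pearson's r and 0 by Spearman's rho with all tumors, and 2 by each without replicate 7, Msr1 and Cd68 by both measures, Cd163 and Stab1 by Pearson's alone and Msr1 and Scarb1 by Spearman's alone. Cd163 and Stab1 had r = 0.842 (adjusted permutation p = 0.0045) and rho = 0.641 (adjusted permutation p = 0.0711), and r = 0.669 without the 2 tumors farthest in Cd163. Without replicate 7 they had r = 0.760 (adjusted permutation p = 0.0238) and rho = 0.632 (adjusted permutation p = 0.149). Leaving out the 2 farthest of those tumors as well gave r = 0.440. Msr1 and Cd68 had r = 0.727 and rho = 0.712 (adjusted permutation p = 0.0045 and 0.0540), r = 0.559 without the 2 farthest tumors, and r = 0.785 without replicate 7. Msr1 and Scarb1 ran in opposite directions (r = -0.708, rho = -0.712, adjusted permutation p = 0.0458 and 0.0540), with r = -0.912 without the 2 farthest tumors and without replicate 7 r = -0.567 and rho = -0.793 (adjusted permutation p = 0.178 and 0.0304). The remaining 4 pairs passed with all tumors and did not pass without replicate 7. Cd163 and Scarb1 had r = 0.806, and without replicate 7 a nearly as large r = 0.704 (adjusted permutation p = 0.0570). Cd163 and Colec12 went from r = 0.684 to 0.482 (adjusted permutation p = 0.278). Scarb1 and Stab1 went from r = 0.731 to 0.509 and Colec12 and Stab1 from 0.737 to 0.507 (adjusted permutation p = 0.226 for each).

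**Figure D4:**
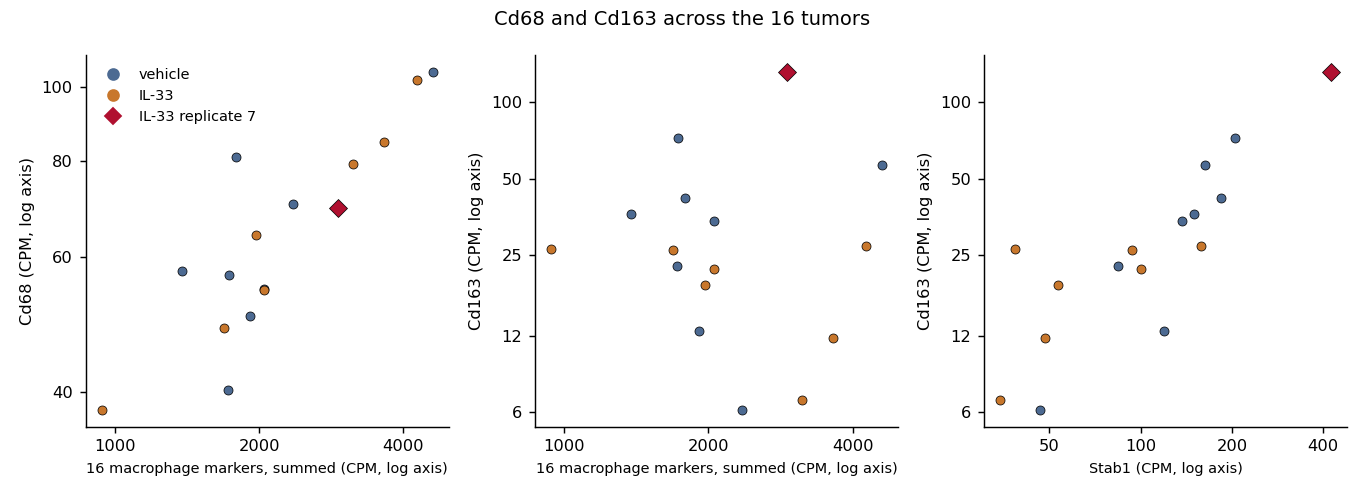
Cd68 and Cd163 in each tumor against the sum of 16 macrophage markers, and Cd163 against Stab1, all in CPM on log axes. Points are single tumors and the diamond is IL-33 replicate 7. Cd68 rises with the macrophage sum (r = 0.834 after group means were removed), Cd163 does not (r = -0.165), and Cd163 and Stab1 rise together (r = 0.842).

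The genes nearest to Cd163 in variation were F13a1, the coagulation factor XIII A chain of macrophages (r = 0.896, and 0.897 without replicate 7), Hoxc10 (0.889 and 0.834) and Selenop, the selenium carrier (0.888 and 0.837). Those nearest to Stab1 were Npl, a sialic acid lyase (0.958 and 0.956), Il4ra, the interleukin-4 receptor alpha chain (0.943 and 0.929), and Aldh1l1, a folate enzyme (0.940 and 0.902). These correlations describe 16 tumors and carry no test.

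Other genes of the same functions were followed from a wider list. Of 22 further scavenger receptors, 1 was called higher and 0 lower with all tumors, beside 9.99% and 1.17% of all genes. Of the 21 testable without replicate 7, 0 were called, beside 4.12% of all genes in either direction. The median log2 fold change of the list was 0.25 with all tumors and 0.044 without replicate 7. The called gene was Cd36, the fatty acid translocase, with an edgeR log2 fold change of 1.49 (unadjusted p = 0.0315). It had 409 CPM in replicate 7 against a vehicle mean of 23.1 CPM, and 0.30 (unadjusted p = 0.450) without that tumor. The most abundant was Lrp1, a receptor of α2-macroglobulin and apolipoprotein E, at a median of 2198 CPM, with an edgeR log2 fold change of -0.28 (unadjusted p = 0.307), and -0.19 (unadjusted p = 0.469) without replicate 7. Mrc1, the mannose receptor, was at 197 ± 98.5 CPM (SD, n = 8) among vehicle tumors and 156 ± 82.8 CPM (SD, n = 8) among IL-33 tumors, a log2 fold change of -0.40 (edgeR unadjusted p = 0.313), and -0.47 (unadjusted p = 0.251) without replicate 7. Stab2, the gene of stabilin-2, was at 0.610 CPM in the vehicle group.

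Of 26 genes for the ligands of these receptors and the handling of their cargo, 1 was called higher and 2 lower with all tumors, and 0 higher and 4 lower without replicate 7, beside 9.99% higher and 1.17% lower over all genes with all tumors and 1.83% and 2.29% without replicate 7. Pparg, the lipid-sensing nuclear receptor, had an edgeR log2 fold change of 1.01 (unadjusted p = 0.0300) and 0.84 (unadjusted p = 0.0615) without replicate 7. Hpx, hemopexin, was lower at -1.83 (edgeR unadjusted p = 0.0308) and -1.83 (unadjusted p = 0.0378). The other genes called lower without replicate 7 include Apoa1 and Apob, which passed the count filter there only through the vehicle group, where replicate 2 was the highest. Their vehicle means were 0.300 and 0.161 CPM, and in the 7 IL-33 tumors Apoa1 averaged 0.0155 CPM and Apob had 0 reads, so no fold change is given.
Hpx, Apoa1 and Apob are liver products. Of 9 liver markers tested, 3, Alb, Fgb and Cyp3a11, were also lower in both settings. Over all genes, 1.17% were lower with all tumors and 2.29% without replicate 7. The liver markers summed to 47.1 CPM in vehicle replicate 2 and to 1.68 to 9.90 CPM in the tumors other than it and IL-33 replicate 7, which held 30.6 CPM, and their part in these values was not tested. Hmox1, which opens the ring of heme taken up through Cd163, had 0.13 (edgeR unadjusted p = 0.807) with all tumors and 0.25 (unadjusted p = 0.650) without replicate 7. Sparc, a ligand of Stab1, had -0.0089 (edgeR unadjusted p = 0.974) and -0.31 (unadjusted p = 0.123), replicate 7 holding 1558 CPM. The ferritin gene Fth1 had -0.47 (edgeR unadjusted p = 0.155) with all tumors and -0.40 (unadjusted p = 0.224) without replicate 7, and Ftl1 had -0.75 (unadjusted p = 0.0637) and -0.67 (unadjusted p = 0.0976). Both genes were at their highest in vehicle replicate 4, the tumor with a TMM factor of 0.640. Ftl1 reached 10994 CPM there, against a median of 3395 CPM over all tumors. Values without vehicle replicate 4 are not given here for these genes.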

How the data were processed

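The authors deposited raw counts of reads per gene, and the deposited counts were used without change. The submitters' processing notes name HISAT2, featureCounts and mm10. Versions, annotation release and use of strand are not given in the sources used here. Libraries were made from poly(A) RNA. Symbols, coordinates and exon lengths came from GENCODE for GRCm38 and matched 22255 of 22298 identifiers. The 43 without a symbol held 0.00434% of counts.

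Genes with at least 10 counts over all tumors were tested with edgeR 4.0.16 (quasi-likelihood, TMM factors, Benjamini-Hochberg adjustment over all genes tested), in R 4.3.3. Alternatives were DESeq2 1.42.0, limma voom 3.58.1, other filters and scalings, a replicate block, and leaving out single tumors. Permutation tests used log2(CPM + 0.5). Correlations used group-centered log2(TMM-scaled CPM + 0.5) and 100000 permutations within groups. The 9 genes, the lists and the tests were chosen with earlier results of these data known. Named genes were the 9, the members of each list at an unadjusted p under 0.05, the most abundant gene of a list and any at 0, and the 3 genes most correlated with Cd163l1, Cd163, Marco and Stab1 among those with a mean of at least 1 CPM. Trdc, Lyve1, Mrc1, Stab2, Clec4g, Hmox1, Sparc, Fth1 and Ftl1 were named for their function after their values were seen. Krt7 and Krt19 were named so that every epithelial marker is given. 1 gene counted in the list of ligands and cargo handling is not reported here by name.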

Additional observations from a re-analysis of the deposited data

Results flagged for a closer look

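A gap test (Dixon's, at 95%) was made in each group of 8 tumors for each of the 9 genes on the log2(CPM + 0.5) scale. It flagged 5 of 18 groups, where chance flags about 1 in 20, and the genes of 1 tumor are not independent. In the IL-33 group the tumor set off from the rest was replicate 7 in all 4 cases and always the highest, the gap to the next tumor being 0.695 of the group's range for Colec12, 0.692 for Scarb1, 0.682 for Cd163l1 and 0.537 for Cd163. In the vehicle group replicate 7 was set off for Cd163l1, with a gap of 0.681 of the range, which rests on 3 reads against 1 or 0 in the others.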

How the results depend on the processing

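Over 25 alternatives to the edgeR fit, Msr1, Marco, Olr1 and Stab1 kept the direction of their change and their side of the adjusted threshold. No gene passed that threshold in 24 of the 25, so the side kept says little. Cd163l1 stayed positive in the 24 that tested it and could not be tested with the stricter expression filter. It reached the count filter only through the reads of the IL-33 group, so its kept direction is no sign of stability. Leaving out 1 tumor at a time, the log2 fold change lay between 1.95 and 4.22 for Cd163l1, -0.82 and 0.034 for Cd163, -0.15 and 0.071 for Cd68, -0.16 and 0.079 for Scarb1, -0.86 and 0.67 for Colec12, -0.92 and -0.25 for Stab1, -0.40 and -0.0061 for Msr1, 0.033 and 0.98 for Marco, and -1.06 and -0.13 for Olr1. Limma voom with all tumors gave 1.52 for Cd163l1, 1.36 for Marco, -0.91 for Cd163 (unadjusted p = 0.0649) and -1.01 for Stab1 (unadjusted p = 0.0087). DESeq2 without replicate 7 gave 2.11 for Cd163l1 (unadjusted p = 0.119). Colec12 was negative without IL-33 replicate 7 (-0.86), in DESeq2 (-0.81), in limma voom with sample weights (-0.77), and, added after the data were seen, in DESeq2 without replicate 7 (-0.87) and in edgeR without that tumor and vehicle replicate 4 (-0.84; Cd163 was then at -0.90). Scarb1 was negative in limma voom (-0.22) and in these added fits (-0.17 and -0.17), and Cd68 was positive in limma voom (0.00063) and in the last of them (0.036). The cause was not tested.

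In single-gene permutation tests, leaving out 1 tumor gave -0.73 to -0.063 for Colec12, -0.93 to -0.41 for Stab1, -0.032 to 0.17 for Cd68 and -0.11 to 0.12 for Scarb1, and the TMM scale gave -0.032 for Cd68 and -0.037 for Scarb1. Relative to macrophage markers the differences were -0.88 to -0.23 for Colec12, -0.55 to -0.28 for Msr1 (passing without vehicle replicate 4 or 7 or IL-33 replicate 2 or 3), -1.07 to -0.54 for Stab1 and -0.32 to 0.014 for Scarb1. Cd163l1 detection asking for 2 reads gave a difference of 5 tumors against 4. The number of receptor pairs that passed was 2 without replicate 7 against 7.

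The number of genes higher and lower at an unadjusted p under 0.05 ran from 289 to 1902 and from 111 to 362 without 1 tumor, against 1680 and 196. Fewer were higher in DESeq2 (424), with the stricter expression filter (498), in limma voom (522), in DESeq2 without replicate 7 (286) and in edgeR without both tumors (330). In the last 3, 444, 392 and 329 genes were lower. DESeq2 without replicate 7 called 1 gene at the adjusted threshold, Alas2, the erythroid heme synthesis enzyme, lower by 3.45 on the log2 scale.

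The replicate numbers did not pair the tumors, since same-numbered tumors correlated between -0.365 and 0.398 and only 2 of 8 did so best with their own number. A replicate block gave 246 genes higher and 72 lower, and -0.40 for Colec12 and -0.042 for Scarb1. The depth limits Cd163l1 and Olr1 most, at 47 and 260 reads in all.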

Other observations

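At an unadjusted p under 0.05 in edgeR, all 10 ovary and all 9 uterus and oviduct markers were higher with every tumor included, beside 9.99% of all genes. Without replicate 7 none of the 4 and 8 still tested were called, beside 4.12% of all genes in either direction. Of the ovary markers, 6 passed the count filter only through replicate 7, so these counts describe that tumor. Of 8 epithelial markers, 5 were higher with all tumors (Krt18, Epcam, Cdh1, Cldn4 and Cldn7), and without replicate 7 only Krt18 was called, as lower by 2.27 on the log2 scale (edgeR unadjusted p = 0.0053). Lep and Plin4 of 7 adipose markers, Wt1 of 6 mesothelium markers and Gata6, the factor of resident peritoneal macrophages, of 9 markers of those cells were higher with all tumors. Over all genes, 9.99% were higher in that setting. Without replicate 7, 0 genes of these lists were called, beside 4.12% of all genes in either direction. Gata6 had 61.5 CPM in replicate 7 against a vehicle mean of 1.57 CPM. Of 12 blood endothelial markers, 0 were called in either setting, beside 11.2% and 4.12% of all genes.

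Of 11 neutrophil markers, 6 had a positive log2 fold change with all tumors and 6 without replicate 7. Their sum was 162 ± 144 CPM (SD, n = 8) among vehicle and 182 ± 139 CPM (SD, n = 8) among IL-33 tumors, with the highest value, 505 CPM, in vehicle replicate 4. Ngp, Camp and Ltf, genes of granule proteins, were called higher by edgeR at an unadjusted p under 0.05 with all tumors, beside 9.99% of all genes, and 2 of them without replicate 7, beside 1.83%. Without replicate 7, Ngp had a log2 fold change of 1.65 (edgeR unadjusted p = 0.0262), Camp 2.20 (unadjusted p = 0.0334) and Ltf 1.36 (unadjusted p = 0.189). None of these passed after adjustment over all genes.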
